A study of Homo sapiens with 6 samples.

Results

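The MAP kinase cascade genes are those whose symbol starts with MAPK, MAP2K, MAP3K or MAP4K followed by a number, or with MAPKAPK, without the symbols of their antisense RNAs. Of the 24462 gene symbols in the tables, 50 had such a name, and the 40 with at least 60 reads over the 6 libraries are described here. They comprise 4 MAP4K, 13 MAP3K, 7 MAP2K, 10 MAPK and 3 MAPKAPK genes, and 3 scaffold or accessory genes whose symbols extend the name of a MAP kinase. All 40 were among the 13605 genes with enough reads to be tested. The sparsest members were MAPK11 with 180 reads, MAPK8IP1 with 219 and MAP3K14 with 384. Just under the minimum lay MAP3K8 with 57 reads, MAPK15 with 50, MAP4K1 with 43 and MAPK8IP2 with 37. MAP2K4P1, MAP3K10, MAP3K7CL and MAPK10 held between 4 and 28 reads, and MAP3K19 and MAPK4 held none.

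A MAP kinase cascade is a relay of protein kinases in which a MAP3K phosphorylates a MAP2K, which in turn phosphorylates a MAP kinase on a threonine and a tyrosine of its activation loop. Kinases of the MAP4K group act above the MAP3Ks, kinases named MAPKAPK are phosphorylated by MAP kinases, and scaffold proteins hold the tiers together. The ERK branch carries growth factor signals, while the JNK and p38 branches respond mainly to stress and cytokines, and in the intestinal epithelium these pathways take part in proliferation, differentiation and the response to injury. The cascades work by phosphorylation, which RNA sequencing does not measure, so the values below are transcript levels only.

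LS 174T is an established human colorectal adenocarcinoma line that makes mucins and serves as a goblet cell model. One group of 3 libraries came from untreated cells (control) and the other group of 3 from cells kept for 4 h with 4 mM propionate, a short-chain fatty acid of the gut microbiota. Both groups were grown in the same serum-containing medium, and the series title names MUC2 and HIF-2α as the subject of the study. No label states that the 3 libraries of a group are separate cultures, and the p-values thus speak of library-to-library spread that could be purely technical. Levels are in CPM (counts per 1000000 reads of the library, after TMM scaling). Read totals ran from 11603288 to 12746170 reads, so that 3 reads were worth 0.235 to 0.259 per 1000000 reads before this scaling. Of 15 colon and goblet cell markers, 14 had at least 60 reads and ATOH1 had none. Summed, they held 5004 to 5935 CPM in control and 5740 to 6346 CPM with propionate. The keratin KRT18, the largest of them, went from a mean of 1920 to 2404 CPM and was called higher, as were MUC2 and CEACAM5, while the colon transcription factors CDX1 (log2 change -0.24, adjusted p = 0.0245) and CDX2 (-0.39, adjusted p = 0.00374) were called lower and the other 9 tested were not called. Of 14 markers of blood, stromal and vessel cells, 5 had at least 60 reads, CD3E, DCN, CDH5 and VWF had none, and the sum was 10.6 to 15.4 CPM in control and 16.7 to 22.6 CPM with propionate. All libraries came from the LS 174T line, and the source of these marker reads was not tested. In bulk RNA, fewer cells of a type and less RNA per cell cannot be told apart.

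The MAP kinases themselves fall into branches that their activation loops make visible. The 30 bases around the phosphorylated residues are shown because they sort the 9 MAP kinases described by name into the groups used below. They were read from GENCODE release 29 transcripts, 5′ to 3′, with the codons of the phosphorylated motif in capitals. In MAPK3, of the ERK group, and in MAPK7 the capitals encode threonine, glutamate and tyrosine.
MAPK3: accggcttcctgACGGAGTATgtggctacg
MAPK7: cagtacttcatgACTGAGTATgtggccacg
In the JNK group they encode threonine, proline and tyrosine.
MAPK8: agttttatgatgACGCCTTATgtagtgact
MAPK9: aacttcatgatgACCCCTTACgtggtgaca
In the p38 group they encode threonine, glycine and tyrosine.
MAPK11: gacgaggagatgACCGGCTATgtggccacg
MAPK12: gacagtgagatgACTGGGTACgtggtgacc
MAPK13: gacgccgagatgACTGGCTACgtggtgacc
MAPK14: gatgatgaaatgACAGGCTACgtggccact
In MAPK6, an atypical MAP kinase also known as ERK3, the aligned codons encode serine, glutamate and glycine, and the tyrosine is missing.
MAPK6: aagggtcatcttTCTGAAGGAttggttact

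With propionate 13 of the 40 genes rose and 7 fell at an adjusted p under 0.05 (edgeR, quasi-likelihood F test, Benjamini-Hochberg over all genes tested, as for every adjusted p below). A change is given on the log2 scale, propionate over control, with its standard error (SE). Over all genes tested 34.2% were called, 17.2% as higher and 17.0% as lower. The called share of the members was 50%, and their median log2 fold change was 0.10 beside -0.01 over all genes. Members had at least 60 reads by definition, while the genes tested included sparser ones such as MAP3K8 with 57. The shares were not matched for read depth. Fold changes of members ran from a fall of 0.66 in MAP2K7 to a rise of 2.12 in MAPK8IP1 on the log2 scale. The groups did not overlap in 27 members, with propionate on the higher side in 18 and on the lower side in 9, while 45.2% of all genes tested showed such a separation. Rises and falls occurred side by side in the MAP4K, MAP3K, MAP2K and MAPK tiers, and among the MAPKAPK and scaffold genes calls were rises only.

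**Figure D1:**
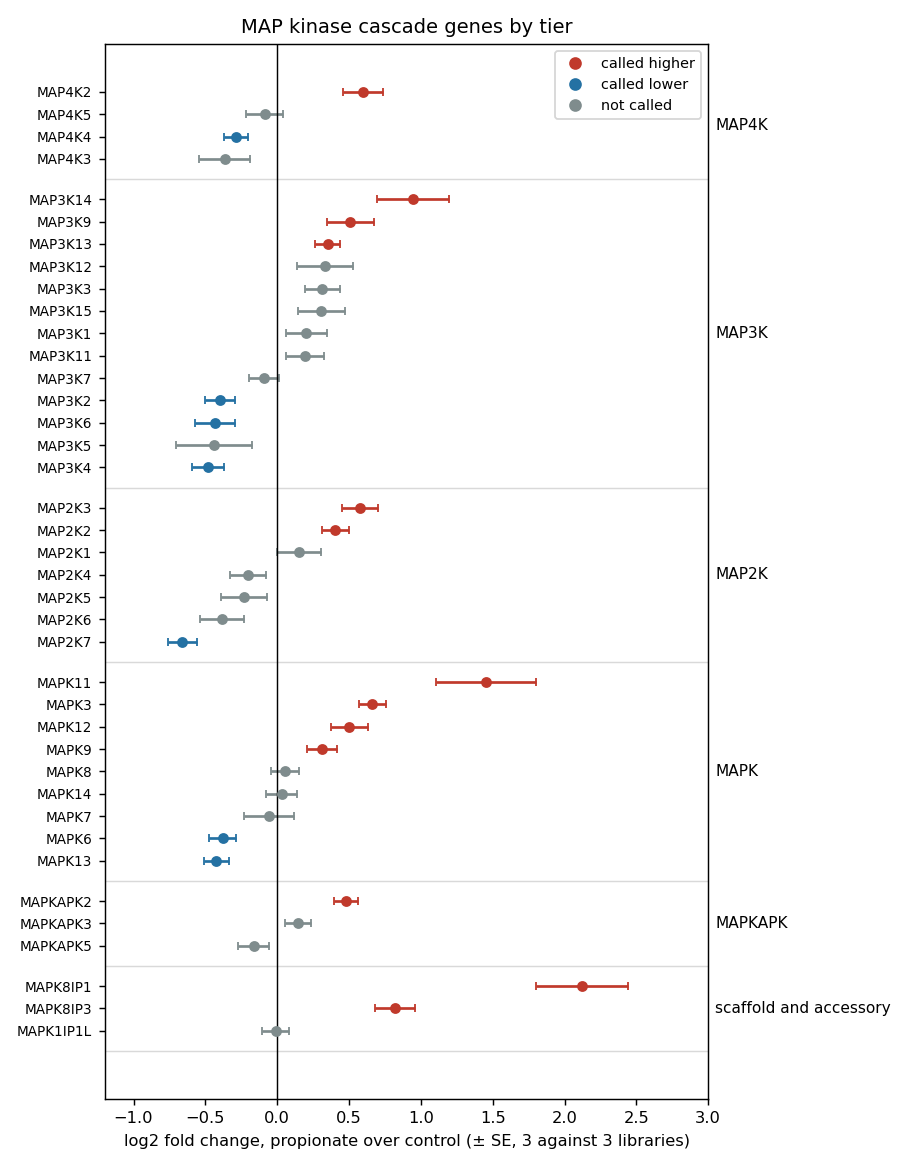
Log2 fold change (propionate over control) of 39 members by tier, with bars of 1 standard error from the edgeR fit to 3 against 3 libraries. Red points were called higher (13), blue points lower (7) and grey points were not called (19), and MAPK8IP1 stands farthest to the right at 2.12.

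**Figure D2:**
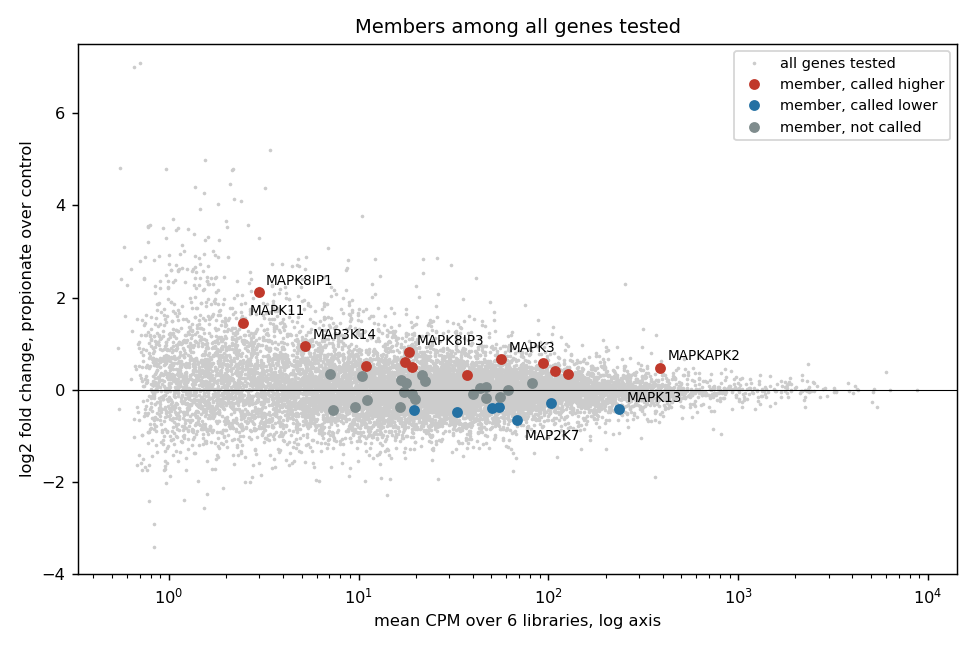
Log2 fold change against mean CPM over the 6 libraries (log axis) for all 13605 genes tested (small grey points), with the 40 members in red (called higher), blue (called lower) or dark grey (not called). The members lie inside the cloud of all genes, between -0.66 and 2.12.

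In the MAP4K tier, which links receptors and small GTPases to the MAP3Ks, 1 of 4 genes rose and 1 fell. MAP4K2, the germinal center kinase, stood at 13.6, 13.5 and 14.5 CPM in controls 1 to 3 and at 18.2, 23.7 and 21.2 CPM in propionate libraries 1 to 3. The groups did not overlap, and MAP4K2 rose 1.51-fold (log2 change 0.60, SE 0.14, adjusted p = 0.0026). MAP4K4, a kinase of the JNK pathway that also acts in cell migration, read 113, 112 and 116 CPM in control and 89.4, 90.2 and 100 CPM with propionate. Every control was above every propionate library, and MAP4K4 fell 1.22-fold (log2 change -0.29, SE 0.084, adjusted p = 0.0128). This call was lost without propionate 1, the lowest library, at a log2 fold change of -0.26 and an adjusted p of 0.0537. MAP4K3 (log2 change -0.37, SE 0.177, adjusted p = 0.118) and MAP4K5 (-0.09, SE 0.131, adjusted p = 0.649) were not called, and their libraries overlapped. Without propionate 1, MAP4K3 passed the threshold at -0.53 (adjusted p = 0.0489).

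Among the 13 MAP3K genes, which receive the upstream signal and choose the branch, 3 rose, 3 fell and 7 were not called. MAP3K14, also called NIK, is the kinase of the non-canonical NF-kB pathway. It had 3.50, 3.17 and 4.08 CPM in the controls and 8.22, 7.64 and 4.82 CPM with propionate. The third propionate library came close to the controls without reaching them, and the rise was 1.92-fold (log2 change 0.94, SE 0.248, adjusted p = 0.00595). In the annotation 703 bases at the 3′ end of MAP3K14 are shared with MAP3K14-AS1 on the opposite strand, whose reads over 3 libraries went from 16 in control to 63 with propionate. How the counting treated strand is unknown from the sources used here, so reads of this pair cannot be told apart with certainty. MAP3K9 and MAP3K13 belong to the mixed-lineage and leucine zipper kinases, which feed the JNK branch. MAP3K13 was at 114, 120 and 99.8 CPM in control and nearly level at 143, 141 and 143 CPM with propionate, a 1.28-fold rise (log2 change 0.35, SE 0.0859, adjusted p = 0.00357). MAP3K9 moved from 7.96, 8.73 and 10.4 CPM to 12.2, 12.8 and 13.7 CPM, also without overlap, a 1.42-fold rise (log2 change 0.51, SE 0.164, adjusted p = 0.0213). The MAP3K9 call was lost without control 1 (adjusted p = 0.09), control 2 (0.0609) or propionate 3 (0.072).

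The 3 MAP3K genes that fell were MAP3K2, MAP3K4 and MAP3K6. MAP3K4, which GADD45 proteins bind and activate, had 35.9, 38.3 and 40.8 CPM in control and 29.2, 24.4 and 28.7 CPM with propionate. It fell 1.40-fold with no overlap between groups (log2 change -0.48, SE 0.111, adjusted p = 0.00233). MAP3K2, a kinase above MAP2K5 and the ERK5 branch, went from 57.5, 55.3 and 60.004 CPM to 40.3, 49.4 and 41.4 CPM, a 1.32-fold fall (log2 change -0.40, SE 0.102, adjusted p = 0.00509). Propionate 2 was the highest of its group for MAP3K2 and still lay under all controls. MAP3K6, a relative of the stress kinase MAP3K5, was tight in control at 22.6, 22.8 and 22.3 CPM and more scattered with propionate at 15.6, 20.3 and 14.2 CPM. The fall of MAP3K6 was 1.35-fold (log2 change -0.43, SE 0.142, adjusted p = 0.023). It missed the threshold without control 2 (adjusted p = 0.057), propionate 1 (0.0831) or propionate 3 (0.104).

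The uncalled MAP3K genes included well-known nodes. MAP3K7 (TAK1), which relays TGF-β and interleukin signals, read 43.3, 37.1 and 42.8 CPM in control and 38.9, 37.6 and 39.3 CPM with propionate (log2 change -0.09, SE 0.102, adjusted p = 0.533). MAP3K5, an oxidative stress sensor also called ASK1, ranged widely within both groups, from 6.21 to 11.7 CPM in control and from 4.02 to 8.84 CPM with propionate. Its fit gave a log2 fold change of -0.44 (SE 0.266, adjusted p = 0.216), which moved to -0.79 without propionate 1 (adjusted p = 0.0451) and to -0.14 without control 3 (0.741). MAP3K3 lay at 19.9, 19.3 and 18.8 CPM in control and at 21.7, 25.2 and 25.1 CPM with propionate. Its groups did not overlap, yet it missed the threshold (log2 change 0.31, SE 0.123, adjusted p = 0.0553), and with the replicate number as a block it passed (adjusted p = 0.0253), as it did without propionate 1 (0.0451). In the block fit with the trend of each library on transcript GC content removed, the log2 change of MAP3K3 was 0.15 and it was not called (adjusted p = 0.302). MAP3K1, MAP3K11, MAP3K12 and MAP3K15 had log2 fold changes between 0.19 and 0.33 with adjusted p between 0.162 and 0.289. At their 3′ ends MAP3K3, MAP3K12 and MAP3K15 share bases with LIMD2, PCBP2 and PDHA1 on the opposite strand, so their counts carry the same uncertainty as those of MAP3K14. PCBP2 and PDHA1 are the more heavily read genes of these pairs, with 14502 and 7478 reads over the controls beside 513 reads of MAP3K12 and 755 reads of MAP3K15 over all 6 libraries.

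The MAP2K tier holds the dual-specificity kinases that phosphorylate the MAP kinases, and here 2 of 7 rose, 1 fell and 4 were not called. MAP2K1 and MAP2K2 (MEK) activate the ERK kinases. MAP2K1, which shares exon bases with SNAPC5 on the opposite strand, gave 15.0, 15.4 and 20.1 CPM in control and 20.2, 15.8 and 20.1 CPM with propionate, with overlap (log2 change 0.15, SE 0.151, adjusted p = 0.478). MAP2K2 gave 91.0, 103 and 83.7 CPM in control and 120, 136 and 113 CPM with propionate. All propionate libraries were higher, and MAP2K2 rose 1.32-fold (log2 change 0.41, SE 0.0965, adjusted p = 0.00292). With the block and this GC trend removed, the log2 fold change of MAP2K2 was 0.08 and the call was lost (adjusted p = 0.294).

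MAP2K3 and MAP2K6 activate p38 kinases. MAP2K3 had 73.5, 61.4 and 88.9 CPM in control and 119, 91.5 and 124 CPM with propionate. Library 2 was the lowest of each group and library 3 the highest. MAP2K3 rose 1.49-fold (log2 change 0.58, SE 0.124, adjusted p = 0.0013), and after removal of the GC trend with the block the log2 fold change was 0.38 (adjusted p = 2.87e-05). MAP2K6 leaned the other way, from 18.3, 16.0 and 21.4 CPM to 12.6, 13.9 and 16.3 CPM. It missed the threshold without the block (log2 change -0.38, SE 0.152, adjusted p = 0.0584) and passed with it (-0.38, adjusted p = 0.017), but not with the block and the GC trend removed (-0.27, adjusted p = 0.0917). Leaving out control 2 or propionate 3 also brought MAP2K6 past the threshold, at -0.48 (adjusted p = 0.0357) and -0.49 (0.034).

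MAP2K7 and MAP2K4 are the activators of JNK, MAP2K7 acting on JNK and MAP2K4 also on p38. MAP2K7 showed the deepest fall of all 40 members. Its controls stood at 84.2, 94.4 and 73.0 CPM, and the propionate libraries lay close together at 52.0, 54.9 and 52.4 CPM. Every control was well above every propionate library, and MAP2K7 fell 1.58-fold (log2 change -0.66, SE 0.10, adjusted p = 4.75e-05). MAP2K4 read 21.7, 21.7 and 20.3 CPM in control and 19.8, 18.3 and 17.3 CPM with propionate, apart but not called (log2 change -0.20, SE 0.126, adjusted p = 0.231). MAP2K5, the activator of ERK5, was likewise apart and not called (log2 change -0.23, SE 0.159, adjusted p = 0.28).

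Of the 10 MAP kinases 4 rose, 2 fell and 4 were not called. In the ERK group MAPK3 (ERK1) had 47.1, 43.7 and 40.4 CPM in control and 66.6, 72.2 and 69.1 CPM with propionate. The groups were far apart, and MAPK3 rose 1.58-fold (log2 change 0.66, SE 0.0959, adjusted p = 2.81e-05), with 0.41 left after removal of the GC trend with the block (adjusted p = 8.69e-05). MAPK7 (ERK5), whose exons overlap those of B9D1 and MFAP4 on the opposite strand, spread from 13.8 to 21.5 CPM in control and from 12.7 to 19.8 CPM with propionate (log2 change -0.06, SE 0.177, adjusted p = 0.837). MAPK6, the atypical kinase shown above without the tyrosine, fell 1.30-fold, from 65.9, 62.5 and 57.5 CPM to 49.3, 48.1 and 45.5 CPM (log2 change -0.38, SE 0.0953, adjusted p = 0.00442). All propionate libraries of MAPK6 were below all controls.

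In the JNK group MAPK8 (JNK1) had 46.2, 42.3 and 49.3 CPM in control and 50.3, 45.7 and 46.9 CPM with propionate. These ranges overlapped, and MAPK8 was not called (log2 change 0.05, SE 0.0995, adjusted p = 0.721). MAPK9 (JNK2) had 33.1, 32.4 and 34.0 CPM in control and 45.6, 39.5 and 38.2 CPM with propionate, the first of these standing above the others. MAPK9 rose 1.24-fold (log2 change 0.31, SE 0.106, adjusted p = 0.0279). The call was lost without control 1 (adjusted p = 0.0719), control 2 (0.0796) or propionate 1 (0.152). MAPK10 (JNK3), a mainly neuronal form, had 4 reads in all.

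The p38 group moved in both directions. MAPK11 (p38 beta) had 0.787, 1.80 and 1.33 CPM in control, from 9, 21 and 16 reads, and 4.03, 3.22 and 3.55 CPM with propionate, from 52, 40 and 42 reads. Low as it was, its groups did not overlap, and MAPK11 rose 2.74-fold (log2 change 1.45, SE 0.347, adjusted p = 0.00298). MAPK12 (p38 gamma) had 17.0, 16.3 and 14.1 CPM in control and 22.8, 22.3 and 22.0 CPM with propionate, a 1.42-fold rise (log2 change 0.50, SE 0.13, adjusted p = 0.00555). With the block and the GC trend removed, MAPK12 was at 0.18 and no longer called (adjusted p = 0.217). MAPK13 (p38 delta), a form common in epithelia, went the other way, with 258, 293 and 259 CPM in control and 195, 222 and 186 CPM with propionate. All propionate libraries lay below all controls, and MAPK13 fell 1.34-fold (log2 change -0.42, SE 0.0874, adjusted p = 0.000893). MAPK14 (p38 alpha), the most studied form, had 44.9, 40.6 and 44.0 CPM in control and 38.1, 48.9 and 45.5 CPM with propionate, with overlap (log2 change 0.03, SE 0.108, adjusted p = 0.855).

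**Figure D3:**
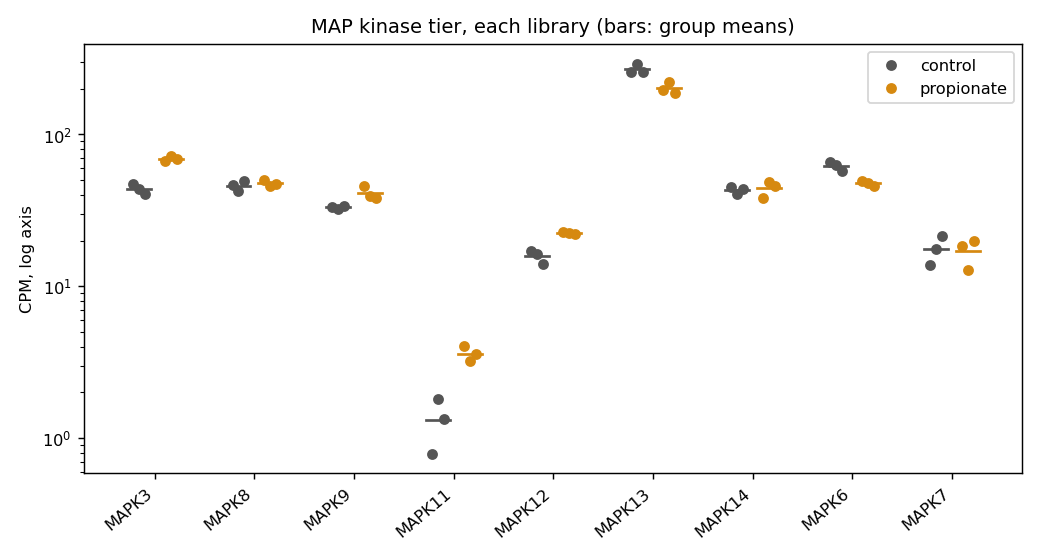
CPM (log axis) of 9 MAP kinases in each of the 3 control (grey) and 3 propionate (orange) libraries, with bars at the group means. MAPK3, MAPK9, MAPK11 and MAPK12 are higher and MAPK13 and MAPK6 lower in all propionate libraries, while the points of MAPK7, MAPK8 and MAPK14 overlap.

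The reads of the 4 p38 genes together came to 330.5 ± 18.7 CPM in control and 271.4 ± 21.8 CPM with propionate (mean ± SD, n = 3). MAPK13 took 81.7 ± 1.46% of them in control and 74.1 ± 1.51% with propionate. The JNK genes MAPK8 and MAPK9 together had 79.1 ± 4.28 CPM in control and 88.8 ± 6.23 CPM with propionate. Shares of reads also follow transcript length unless reads come from 3′ ends only, so they are compared between groups and not between genes.

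The p38 genes lie in adjacent pairs. In RefSeq on GRCh38.p14, MAPK12 is followed by MAPK11 on chromosome 22 and MAPK14 by MAPK13 on chromosome 6. On chromosome 22 both genes rose, and on chromosome 6 MAPK13 fell and MAPK14 was not called. The MAPK12 call was lost with the block and the GC trend removed (log2 change 0.18, adjusted p = 0.217). MAPK11 rested on 9, 21 and 16 reads in controls 1 to 3. The 250 bases before the start of the 3 called p38 genes are shown because 2 of these neighbors rose together and MAPK13 fell. Capitals mark the GC box GGGCGG on either strand, overlapping matches included, which is 5 matches for MAPK11 and 4 each for MAPK12 and MAPK13.
MAPK11, chr22:50270381-50270630, minus strand: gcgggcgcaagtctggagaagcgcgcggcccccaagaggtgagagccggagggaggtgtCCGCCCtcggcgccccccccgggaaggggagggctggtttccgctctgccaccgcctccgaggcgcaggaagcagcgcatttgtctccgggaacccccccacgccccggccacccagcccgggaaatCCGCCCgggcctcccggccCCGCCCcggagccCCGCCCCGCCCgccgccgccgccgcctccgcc
MAPK12, chr22:50261684-50261933, minus strand: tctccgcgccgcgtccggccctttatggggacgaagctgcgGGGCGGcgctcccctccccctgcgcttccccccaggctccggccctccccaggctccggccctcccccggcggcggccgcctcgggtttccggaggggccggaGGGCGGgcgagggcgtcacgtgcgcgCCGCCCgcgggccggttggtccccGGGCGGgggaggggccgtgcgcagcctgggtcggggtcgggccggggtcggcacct
MAPK13, chr6:36130263-36130512, plus strand: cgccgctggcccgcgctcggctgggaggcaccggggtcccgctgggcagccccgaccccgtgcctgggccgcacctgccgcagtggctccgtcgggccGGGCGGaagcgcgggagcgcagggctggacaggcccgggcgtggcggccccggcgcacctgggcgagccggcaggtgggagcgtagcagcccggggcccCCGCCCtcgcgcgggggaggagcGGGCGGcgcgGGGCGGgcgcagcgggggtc
The 3 stretches are alike in being rich in G and C, at 79.2% for MAPK11, 82.0% for MAPK12 and 84.4% for MAPK13. None of the 3 held an AP-1 site, a cAMP response element or a CCAAT box. The stretch of MAPK14, not shown, was less rich at 59.2%, with 1 GC box and 1 CCAAT box. RefSeq promoters were matched for 35 of the 40 members, and MAP3K1, MAP3K15, MAPK8IP1 and MAPKAPK2 were among those without an entry. Of the 35 stretches 85.7% held a GC box (42.3% of 27305 promoters of the same length). Those 27305 promoters include genes that were not tested here, whereas all members were tested. CCAAT stood in 25.7% of them (33.0% of all), the AP-1 site TGACTCA only in MAP2K3 (4.16% of all) and the cAMP response element TGACGTCA in MAP3K13 and MAPK8IP3 (1.77% of all). Both strands were searched, and a match is a description of the letters only.

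Below the MAP kinases, MAPKAPK2, the p38 substrate kinase that stabilizes cytokine mRNAs, was the only called gene of its tier. It had 342, 316 and 314 CPM in control and 443, 497 and 416 CPM with propionate. The groups were clearly apart, and MAPKAPK2 rose 1.40-fold (log2 change 0.48, SE 0.0834, adjusted p = 0.000183), with 0.30 after removal of the GC trend with the block (adjusted p = 5.03e-05). MAPKAPK3, a close relative with the same activators, had 82.4, 81.2 and 70.9 CPM in control and 83.5, 89.1 and 86.7 CPM with propionate. Its propionate libraries were all higher, but it was not called (log2 change 0.15, SE 0.0894, adjusted p = 0.226). MAPKAPK5 was not called either (log2 change -0.16, SE 0.106, adjusted p = 0.25) and shares exons with ADAM1A on the same strand and MAPKAPK5-AS1 on the other.

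Among the members the 2 JNK scaffolds had the largest and the fourth largest rises. MAPK8IP1 (JIP1), which binds JNK, MAP2K7 and mixed-lineage kinases and links them to kinesin, had 0.875, 0.941 and 1.5001 CPM in control, from 10, 11 and 18 reads. With propionate it had 4.42, 4.98 and 5.16 CPM, from 57, 62 and 61 reads. The lowest propionate library was far above the highest control, and MAPK8IP1 rose 4.35-fold (log2 change 2.12, SE 0.32, adjusted p = 4.39e-05). MAPK8IP3 (JIP3), another scaffold of JNK on kinesin transport, had 14.4, 14.1 and 11.7 CPM in control and 25.0, 25.1 and 20.8 CPM with propionate. It rose 1.76-fold without overlap (log2 change 0.82, SE 0.14, adjusted p = 0.000161), and after removal of the GC trend with the block the log2 fold change was 0.51 (adjusted p = 0.000953). At its 3′ end MAPK8IP3 shares 32 bases in the annotation with NME3 on the opposite strand. Reads of NME3 summed to 1702 in control and 2001 with propionate, beside 1350 reads of MAPK8IP3 over all 6 libraries. The treatment of strand is unknown, so the MAPK8IP3 counts carry the same uncertainty as those of MAP3K14. MAPK1IP1L was not called (log2 change -0.01, SE 0.0921, adjusted p = 0.94).

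Within a library, the ratio of reads between relatives does not depend on scaling, but the trend on GC content was not removed from it. Transcripts of MAP2K3 and MAP2K6 have 58.8% and 38.5% GC, those of MAPK12 and MAPK14 65.2% and 46.3%. With the block and the GC trend removed, MAP2K3 (log2 change 0.38) and MAP2K6 (-0.27) lay closer together, as did MAPK12 (0.18) and MAPK14 (0.06). MAP2K7 (-0.94) and MAP2K4 (-0.12) lay farther apart, as did MAPK13 (-0.49) and MAPK14. Pairs of the same branch were chosen after the values were seen, so the 7 ratios are given without a test, and their size is not a comparison of levels between genes. MAP2K3 over MAP2K6 was 4.02, 3.84 and 4.15 in controls 1 to 3 and 9.45, 6.58 and 7.60 in propionate libraries 1 to 3, 1.95-fold higher between geometric means and the widest shift of the 7. MAP2K7 over MAP2K4 moved from 3.88, 4.34 and 3.59 to 2.63, 2.996 and 3.03. MAPK13 over MAPK14 moved from 5.74, 7.22 and 5.89 to 5.13, 4.55 and 4.09. In these 3 pairs no propionate library reached the control range. The same was true of MAPK12 over MAPK14 (0.365 in control, 0.509 with propionate, geometric means), MAPK9 over MAPK8 (0.724 and 0.862) and MAPKAPK2 over MAPKAPK3 (4.15 and 5.21). For MAP2K2 over MAP2K1 the ratios overlapped, at 6.05, 6.71 and 4.17 in control and 5.93, 8.57 and 5.61 with propionate. The share of other gene pairs without overlap was not computed, and 45.2% of single genes tested had no overlap between groups.

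**Figure D4:**
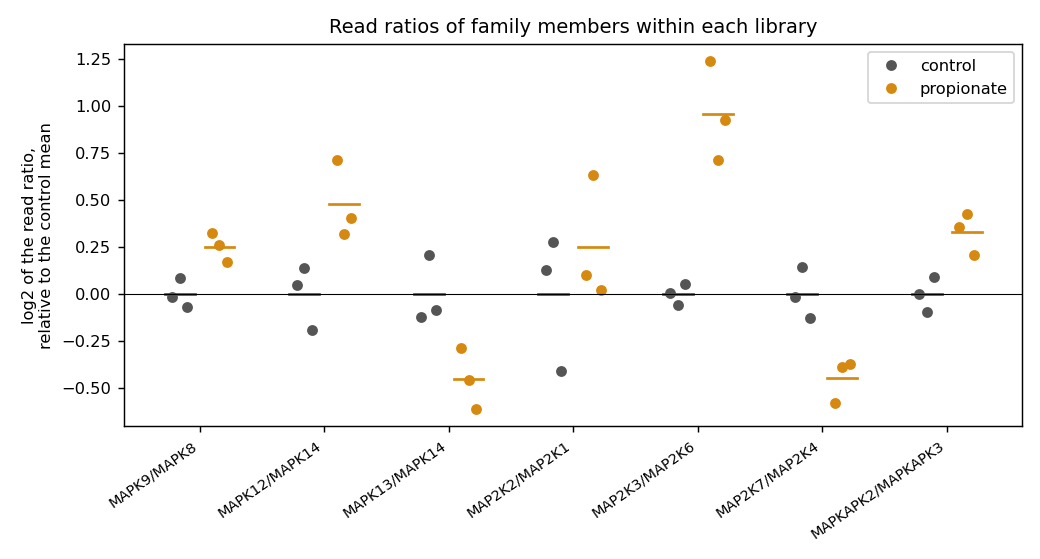
Log2 of the read ratio of 7 gene pairs in each library relative to the control mean of the pair, for 3 control (grey) and 3 propionate (orange) libraries, with bars at the group means. The groups are apart for 6 pairs and overlap for MAP2K2 over MAP2K1, and MAP2K3 over MAP2K6 shows the widest shift. The pairs were chosen after the values were seen.

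Members that rose had transcripts richer in GC than the other members, a description for which no test was run. The median GC content was 59.0% in the 13 members that rose, 47.3% in the 7 that fell and 46.2% in the 20 that were not called. Over all genes the medians were 55.7%, 45.8% and 48.1%. MAP2K7 with 62.9% and MAP3K6 with 63.5% fell in spite of transcripts as GC-rich as those of the members that rose, and MAPK9 with 43.4% and MAP3K13 with 44.5% rose with GC-poor ones. With the block and the GC trend removed, 11 members were higher and 7 lower. MAP2K7 then stood at -0.94 and MAP3K6 at -0.74, MAPK8IP1 at 1.84 and MAPK11 at 1.19, all called. Whether base composition acts through library preparation or through the cells was not tested.

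**Figure D5:**
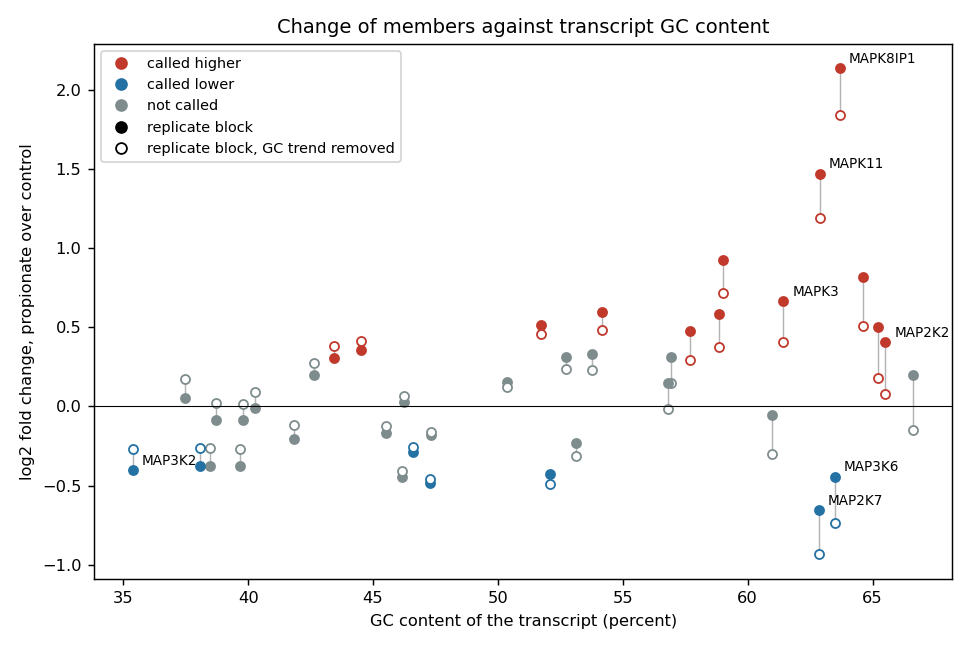
Log2 fold change of the 40 members against the GC content of the transcript in percent, from the fit with a replicate block (filled) and from the same fit with the GC trend removed (open), joined by lines. Colors give the call of the fit without a block, and MAP2K7 and MAP3K6 are the low points at high GC content, with MAP2K2 close to 0 once the trend is removed.

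The inputs and outputs of the cascades under other names were read from 6 lists. Beside them, 34.2% of all genes tested were called and 45.2% had no overlap between groups. The called shares of the tested genes in the lists, in the order below, were 43.8%, 31.6%, 16.7%, 21.4%, 57.1% and 53.3%. The lists were chosen with earlier results of these data known, so these shares are descriptive only. Of 16 genes of the RAS and RAF input 4 rose and 3 fell (median log2 fold change 0.02). SHOC2, a scaffold that helps RAF activation, rose from 49.3 ± 1.81 to 74.0 ± 7.30 CPM (adjusted p = 0.00011). SHC1, an adaptor of receptor tyrosine kinases, fell from 65.7 ± 5.29 to 40.2 ± 4.21 CPM, and SOS1, the exchange factor that loads RAS with GTP, fell from 37.9 ± 5.00 to 24.2 ± 0.984 CPM (adjusted p = 3.32e-05 and 0.000269). Of 19 other STE20 and MAP3K-type kinases 3 rose and 3 fell (median 0.02). TAOK3, a kinase above p38 and JNK, rose 1.95-fold, from 101 ± 7.13 to 198 ± 10.9 CPM (adjusted p = 1.02e-07), and STK4 of the Hippo pathway rose 1.45-fold (adjusted p = 0.000658). TAOK1 fell 1.19-fold (adjusted p = 0.0229) and PAK2 fell 1.17-fold (0.04). Among 18 further scaffolds and activating partners, 2 rose and 1 fell (median 0.11). GADD45B, which binds MAP3K4 and MAP2K7, rose from 6.95 ± 0.25 to 32.9 ± 6.52 CPM (adjusted p = 7.87e-09), the JNK scaffold SPAG9 rose 1.25-fold (0.0157) and GADD45G fell from 11.7 ± 2.00 to 7.06 ± 1.49 CPM (0.00718).

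Of 14 MAP kinase phosphatases tested 2 rose and 1 fell (median 0.02). DUSP5, which removes phosphate from nuclear ERK, rose from 4.63 ± 0.68 to 13.6 ± 1.67 CPM (adjusted p = 4.08e-06), and DUSP8, a phosphatase of JNK and p38, rose from 9.21 ± 0.976 to 18.3 ± 2.94 CPM (0.000105). PPM1D, a p53-induced phosphatase that acts on p38, fell from 18.0 ± 2.33 to 11.4 ± 1.13 CPM (0.00224). The 7 tested kinases downstream of MAP kinases included 4 that rose and none that fell (median 0.39). Of these 7 kinases, 6 had no overlap between groups, beside 45.2% of all genes tested. MKNK2, which phosphorylates the cap-binding factor eIF4E, had 120, 126 and 129 CPM in control and 244, 272 and 273 CPM with propionate, a 2.10-fold rise (log2 change 1.07, SE 0.0819, adjusted p = 1.94e-08). MKNK1 rose 1.49-fold (adjusted p = 0.000943). Of 15 tested transcription factors that MAP kinases phosphorylate 6 rose and 2 fell (median -0.04). MEF2C, a target of p38 and ERK5, rose from 2.94 ± 0.783 to 9.94 ± 0.718 CPM (adjusted p = 7.55e-06), and JUND rose from 82.2 ± 5.32 to 114 ± 1.34 CPM (0.00026). ETS2 fell from 688 ± 17.7 to 454 ± 29.3 CPM (8.28e-06) and ELK4 from 15.4 ± 1.76 to 10.5 ± 1.20 CPM (0.00998).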

How the data were processed

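RNA of LS 174T cells was sequenced in 6 libraries, 3 per group, each made with a Lexogen Quant-Seq kit (500 ng RNA input), per the labels' protocols. The catalogue number beside the kit name may be that of a different kit, so whether reads come from 3′ ends and keep their strand is not known here. The tables deposited hold unnormalized counts by gene symbol, 25737 lines for each library. Bowtie2, edgeR, hg19 and GRCh37 are named per the submitters' processing notes; the sources used here do not give the read counter, its handling of strand or the gene annotation. The counts of symbols on several lines were summed (no member was concerned).

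All genes kept by filterByExpr (13605) were tested with edgeR 4.0.16 in R 4.3.3 (quasi-likelihood F test, TMM factors, two-sided, Benjamini-Hochberg adjusted p under 0.05). CPM values were scaled by those factors, and log2 changes are the fitted coefficients. The script was tested on simulated data. Members, partner lists and naming rule were chosen with earlier results of these data known. Every called member is named with its libraries, MAPK8, MAPK14 and MAP2K1 in any case, and up to 2 genes of smallest p per direction from each list; a few values that this rule selects are not reported here.

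Replicate numbers come from the prime marks in the sample titles. Deviations of same-numbered libraries from group means correlated at 0.24, 0.396 and 0.442 over 9286 genes (unlike numbers -0.354 to 0.00985), each same-number value above the limit of 0.1, so numbers were treated as pairs in an alternative fit with a replicate block. No label states a shared day. GC content came from GENCODE release 29 transcripts (1 per symbol), its trend was a spline with 4 degrees of freedom, and it was removed within the block fit. Other alternatives were other scaling and filters, DESeq2 1.42.0, limma-voom (limma 3.58.1) and leaving out each library.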

Additional observations from a re-analysis of the deposited data

How the results depend on the processing

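Of 16 alternatives 15 were planned and 1, the GC trend of the last 500 bases with the block, was added after the data were seen. The number of members higher ran from 11 to 14 and lower from 7 to 10, against 13 and 7. With the replicate block alone 14 were higher and 8 lower, MAP3K3 and MAP2K6 being the additions. MAP3K3 was also called with upper-quartile factors (adjusted p = 0.0393) or library totals alone (0.0447), and MAP2K6 without a filter on low counts (0.046). The paired fit changed no other call. Leaving out single libraries gave a median log2 fold change from 0.0434 (without control 2) to 0.121 (without propionate 2). With the GC trend of the last 500 bases removed the member median was 0.0523, beside -0.0496 over all genes. MAP2K5 (adjusted p = 0.00846) and MAP2K6 (0.0258) were then among the members called lower, and the cause was not tested. Of 20 called members 14 kept their call in all 16, and MAP2K2, MAPK12, MAP3K6, MAP3K9, MAPK9 and MAP4K4 lost it in 1 or more. No member changed direction with a call. Depth limits MAPK11 and MAPK8IP1, whose folds rest on 9 to 21 and 10 to 18 reads per control. Leaving out a library leaves 2 in its group.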
